A study of Homo sapiens with 16 samples.

Results

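Collagen chain genes are the 44 protein-coding genes whose symbol has the form COL, a type number, A and a chain number, among the 58735 genes listed for each of 2 pancreatic cancer cell lines. Collagens are extracellular proteins built of 3 chains wound into a triple helix. The chains of fibril-forming types are cut outside the cell and assemble into fibrils, type IV chains form the sheet of basement membranes, and other types coat fibrils, link cells to the matrix or span the cell membrane. Pancreatic ductal adenocarcinoma is known for a dense collagen stroma, most of which is made by fibroblasts and stellate cells, and carcinoma cells in culture show which chains they make on their own.

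The study sequenced poly-A enriched RNA of BxPC3 and PANC-1, both established lines from human pancreatic ductal adenocarcinoma. Its 4 groups were BxPC3 with gemcitabine, BxPC3 control, PANC-1 with gemcitabine and PANC-1 control, with 4 libraries each. Gemcitabine is a deoxycytidine analogue that blocks DNA synthesis. The labels give no dose, time or vehicle and do not say whether replicates were separate cultures, so the spread behind each p-value, which is that between the libraries at hand, may be technical. Levels are FPKM, that is fragments scaled to transcript length and library size, and the reads in listed genes numbered 22152034 to 37777222 per library. At that depth 3 reads on a transcript of 1 kb correspond to 0.0803 to 0.138 FPKM. A chain was called expressed in a line at 1 FPKM or more in at least 4 of its 8 libraries. Such chains were tested with limma on log2(FPKM + 1), a scale that understates the change of low genes, with p-values adjusted over all genes tested in the line and a threshold of 0.05. Means are given ± SD over 4 libraries, log2 changes are gemcitabine minus control, and folds are ratios of mean FPKM.

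The labelled cell type was checked with marker genes. All 6 epithelial markers were expressed in BxPC3 and 4 of 6 in PANC-1, where the adhesion protein gene CDH1 (0.551 ± 0.0716 FPKM with gemcitabine and 0.921 ± 0.0656 FPKM in control) and the keratin gene KRT7 lay below the limit. Of 8 fibroblast and stellate cell markers 1 was expressed in each line, ACTA2 in BxPC3 and THY1 in PANC-1. DCN, which fibroblasts express at high levels, had 13 reads with gemcitabine and 11 in control over the 4 BxPC3 libraries of each group, and 12 and 26 reads in PANC-1. The 8 fibroblast markers summed to 1.58 to 1.77 FPKM with gemcitabine and 2.41 to 3.06 FPKM in control in BxPC3, and to 3.97 to 4.97 FPKM with gemcitabine and 6.07 to 6.65 FPKM in control in PANC-1. Summed epithelial markers ranged over 2672 to 3101 FPKM with gemcitabine and 2826 to 3297 FPKM in control in BxPC3. In PANC-1 they were higher with gemcitabine, at 551 to 758 FPKM against 337 to 369 FPKM, which is mainly keratin mRNA. One of 4 endothelial markers passed the limit in each line, through the gemcitabine libraries alone, so either could enter only as a higher gene. These were CDH5 in BxPC3, with 5.76 ± 0.263 FPKM with gemcitabine and 0.603 ± 0.0524 FPKM in control, and KDR in PANC-1, with 3.47 ± 0.305 FPKM with gemcitabine and 0.515 ± 0.111 FPKM in control. The 4 endothelial markers summed to 5.59 to 6.29 FPKM with gemcitabine and 1.38 to 1.61 FPKM in control in BxPC3, and to 3.11 to 3.77 FPKM with gemcitabine and 0.380 to 0.634 FPKM in control in PANC-1, while PECAM1 and VWF had means of at most 0.756 FPKM in every group. In BxPC3 both of these were lower with gemcitabine, PECAM1 at 0.132 against 0.756 FPKM in control and VWF at 0.112 against 0.151 FPKM. In PANC-1 they were higher at few reads, 20 with gemcitabine and 3 in control for PECAM1, and 27 and 3 for VWF. Of 4 leukocyte markers, CD14 alone passed in each line, and the sums were 6.88 to 8.24 FPKM with gemcitabine and 6.90 to 8.14 FPKM in control in BxPC3, and 2.27 to 3.99 FPKM with gemcitabine and 0.943 to 1.249 FPKM in control in PANC-1. The pan-leukocyte gene PTPRC had means of at most 0.0143 FPKM. The part of these shifts in the collagen results was not tested. Fewer cells and less RNA per cell cannot be told apart in these bulk libraries.

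In PANC-1 the first gemcitabine replicate stood apart from the other 3 of its group. Its median deviation from them was 0.45 (log2) over the top quartile of tested genes by transcript GC content and -0.42 over the bottom quartile. In the other 15 libraries these medians stayed within -0.17 and 0.15. The expressed collagen chains of PANC-1 are GC-rich, with a median GC content of 61.3% against 48.5% for all tested genes, and their median deviation in that library was 0.16. Several PANC-1 results are therefore given with and without it. For COL9A3, COL26A1 and COL7A1, given below with it, the log2 changes without it were -1.24, -1.18 and 0.34.

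**Figure D1:**
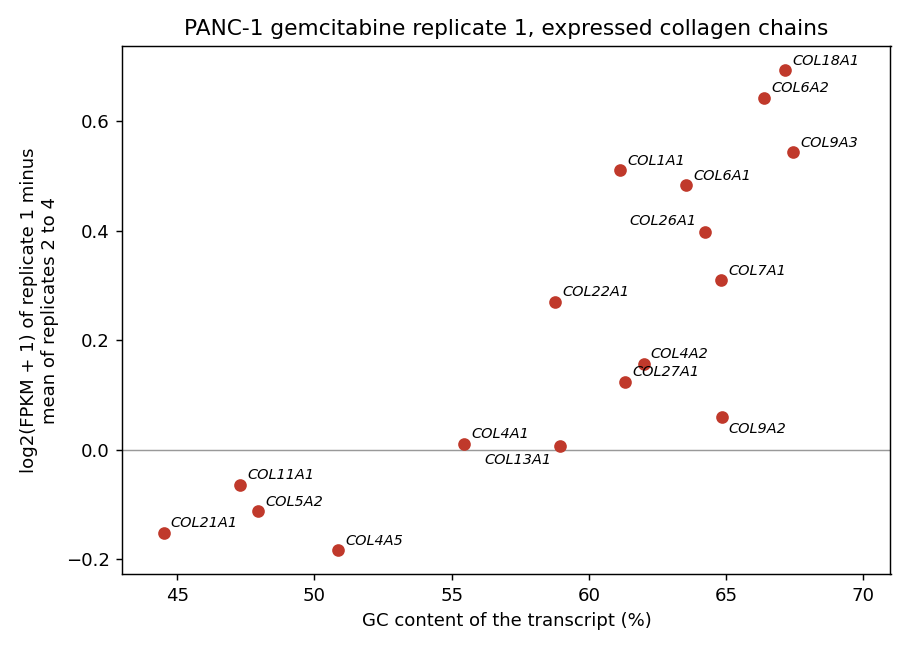
Deviation of PANC-1 gemcitabine replicate 1 from the mean of replicates 2 to 4 (vertical axis, log2(FPKM + 1)) against the GC content of the longest annotated transcript (horizontal axis, %), for the 17 collagen chains expressed in PANC-1. Each point is a gene: COL18A1, at 67.2% GC, deviated by 0.69 and COL4A5, at 50.9% GC, by -0.18.

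The lines expressed partly different collagen chains. Of the 44 chains, 18 were expressed in BxPC3 and 17 in PANC-1, 9 of them in both lines: COL1A1, COL5A2, COL27A1, COL4A5, COL6A1, COL7A1, COL9A2, COL9A3 and COL18A1. A further 9 passed the limit in BxPC3 alone, 8 in PANC-1 alone and 18 in neither. The lines come from 2 separately deposited tables, so levels were not tested between them. Of the 26 chains not expressed in BxPC3, 22 had a mean under 0.1 FPKM in both groups, while in PANC-1 this held for 15 of 27. COL6A5 had no read in any PANC-1 library. Just above the limit in PANC-1 lay COL21A1, with 1.17 ± 0.144 FPKM with gemcitabine and 0.931 ± 0.0683 FPKM in control, and just below it COL5A1, with 1.003 ± 0.179 FPKM with gemcitabine and 0.936 ± 0.0424 FPKM in control. COL8A2 narrowly missed the limit as well, with 1.10, 1.16, 1.36 and 0.990 FPKM in the PANC-1 controls and 0.328 ± 0.0735 FPKM with gemcitabine.

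In BxPC3 the chain with the highest level was COL17A1, which encodes the membrane-spanning collagen of hemidesmosomes, the structures that fasten epithelial cells to the basement membrane. It made up 39.6% ± 0.795 of the summed collagen FPKM with gemcitabine and 35.5% ± 1.10 in control. COL12A1, whose protein coats type I fibrils, followed with 10.8% ± 0.684 and 14.9% ± 0.827. COL7A1, the anchoring fibril chain of epithelia, made up 10.5% ± 0.434 with gemcitabine and 7.96% ± 0.537 in control. In PANC-1 a single chain dominated: COL18A1, a basement membrane collagen that carries heparan sulfate and yields endostatin, made up 63.1% ± 3.69 of the sum with gemcitabine and 71.1% ± 1.12 in control. The fibril-forming chain COL5A2 came next, with 10.6% ± 2.11 and 9.17% ± 0.581.

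**Figure D2:**
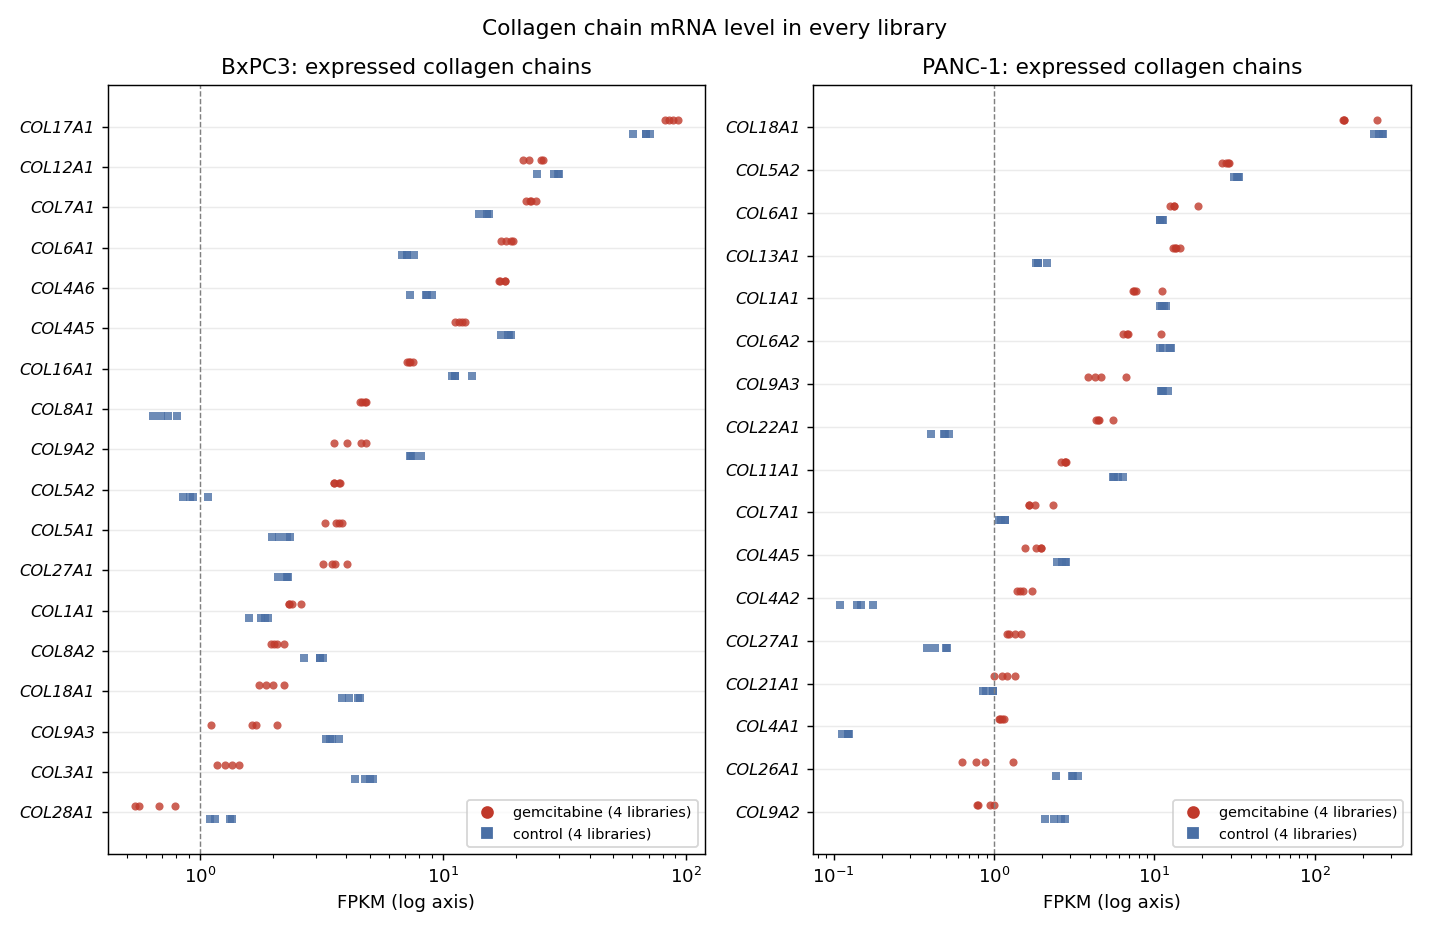
FPKM (log axis) of each expressed collagen chain in every library, for BxPC3 (18 chains, left) and PANC-1 (17 chains, right), ordered by the gemcitabine mean. Circles are the 4 gemcitabine libraries and squares the 4 controls, the dashed line marks 1 FPKM, and the control squares of COL4A1 and COL4A2 in PANC-1 lie near 0.1 FPKM.

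Summed over all 44 chains, the level was 221, 228, 219 and 210.3 FPKM in the BxPC3 gemcitabine libraries and 191, 178, 195 and 189.8 FPKM in the controls. The gemcitabine sums lay above every control sum. In PANC-1 the sums were 358, 250.4, 247 and 245 FPKM with gemcitabine and 355, 371, 368 and 339 FPKM in control. Replicates 2 to 4 with gemcitabine lay below all controls and replicate 1 lay among them, so the mean was 275 ± 55.5 FPKM with it and 247 ± 2.69 FPKM without it, against 358 ± 14.8 FPKM in control. By class, the BxPC3 chains that coat fibrils (the FACIT class) summed to 37.0 ± 1.45 FPKM with gemcitabine and 51.0 ± 1.08 FPKM in control. The beaded filament class in BxPC3, nearly all COL6A1, stood at 18.5 ± 0.950 FPKM with gemcitabine and 7.17 ± 0.306 FPKM in control. The membrane-spanning class in PANC-1 summed to 14.1 ± 0.690 FPKM with gemcitabine and 2.79 ± 0.116 FPKM in control, of which COL13A1 alone made up 13.7 ± 0.645 and 1.94 ± 0.142 FPKM, while its member COL23A1 went the other way. No class sum was tested.

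**Figure D3:**
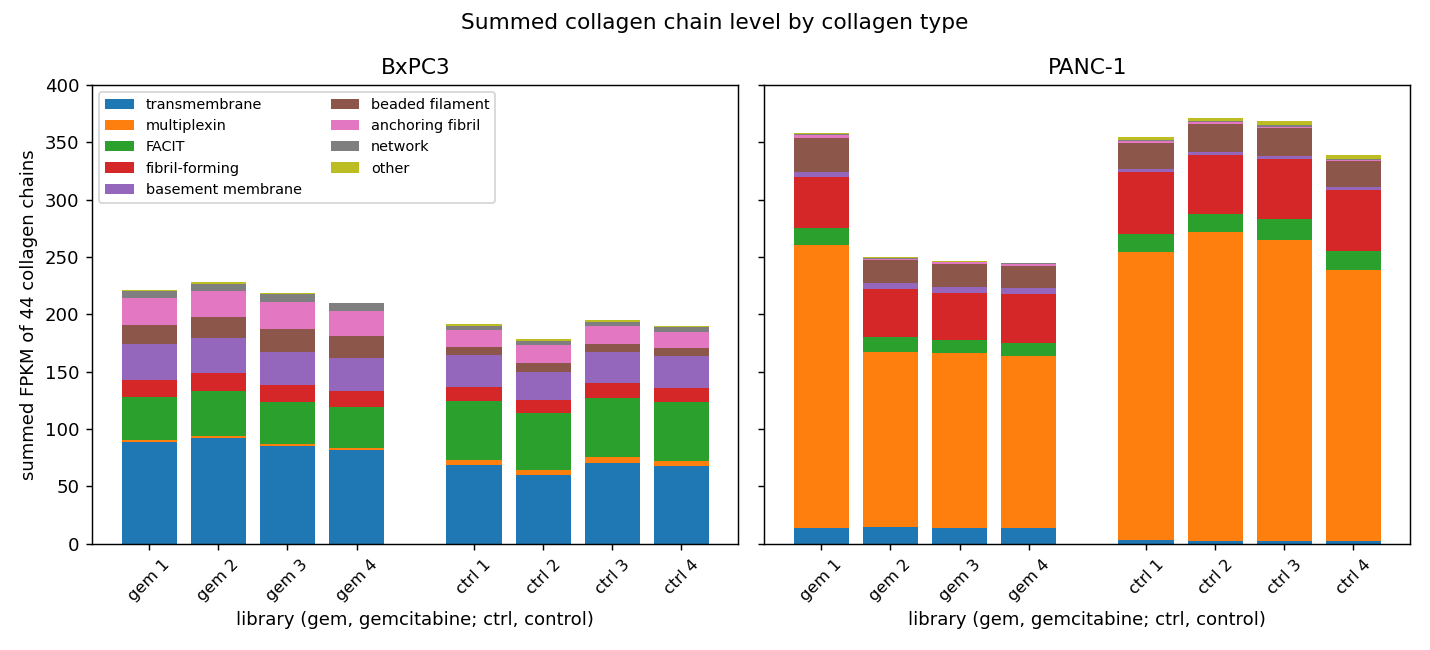
Summed FPKM of the 44 collagen chains in each library (stacked bars from 0, colours for the collagen class), with the 4 gemcitabine libraries left of the 4 controls in each line. In BxPC3 the membrane-spanning class, nearly all COL17A1, is the widest band, and in PANC-1 it is the multiplexin class, nearly all COL18A1.

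The first comparison asked how the chains expressed in BxPC3 differed between gemcitabine and control. Of 18 chains, 9 were higher and 9 lower, beside 37.3% higher and 36.1% lower among the 12215 genes tested, so a change as such was common in this line. The median log2 change of the 18 was 0.03, and that of all tested genes 0.00. In 17 of 18 chains the ranges of the gemcitabine and control libraries did not overlap, which held for 67.5% of all tested genes. Past an absolute log2 change of 1 were 3 higher chains, COL8A1, COL6A1 and COL5A2, and 1 lower chain, COL3A1, where 4.4% of tested genes passed it upward and 4.02% downward. COL8A1 passed the filter through its gemcitabine libraries and COL28A1 through its controls, so a difference in these was built into the choice. COL5A2 passed with 4 gemcitabine libraries and 1 control, which is nearly the same situation.

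Among fibril-forming chains in BxPC3, those of type V, XXVII and I were higher and type III was lower. COL5A2, whose protein joins type V trimers that regulate the width of type I fibrils, had 3.76, 3.72, 3.56 and 3.55 FPKM with gemcitabine and 1.08, 0.855, 0.935 and 0.912 FPKM in control. The groups were far apart, and the gene rose 3.85-fold (log2 change 1.26 ± 0.0478 SE, limma adjusted p = 9.17e-09). Its partner COL5A1 had 3.75, 3.83, 3.63 and 3.27 FPKM with gemcitabine and 2.29, 1.98, 2.35 and 2.12 FPKM in control, a rise of 1.66-fold (log2 change 0.54 ± 0.0557 SE, limma adjusted p = 1.19e-05). COL3A1, which forms the homotrimers of reticular fibres, went the other way: 1.17, 1.36, 1.45 and 1.26 FPKM with gemcitabine, and 4.78, 4.34, 5.02 and 5.15 FPKM in control. No library of one group reached the other, and the mean with gemcitabine was 0.272 times that of control (log2 change -1.33 ± 0.0579 SE, limma adjusted p = 2.27e-08). COL3A1 and COL5A2 lie 19149 bases apart on chromosome 2, tail to tail. COL27A1, a fibril-forming chain known from cartilage, had 3.61, 4.02, 3.51 and 3.22 FPKM with gemcitabine against 2.30, 2.09, 2.28 and 2.27 FPKM in control and rose 1.61-fold (limma adjusted p = 2.16e-05). COL1A1, the alpha 1 chain of type I collagen, rose to 2.42 ± 0.133 FPKM with gemcitabine, against 1.79 ± 0.138 FPKM in control (log2 change 0.30 ± 0.0511 SE, limma adjusted p = 0.000459).

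The type IV chains expressed in BxPC3 were COL4A5 and COL4A6, which join in 1 trimer found in some epithelial and smooth muscle basement membranes, and they moved in opposite directions. COL4A6 had 18.0, 17.9, 16.9 and 17.1 FPKM with gemcitabine and 8.50, 7.33, 8.57 and 8.996 FPKM in control, a rise of 2.09-fold (log2 change 0.99 ± 0.0561 SE, limma adjusted p = 1.48e-07). COL4A5 had 12.4, 11.97, 11.6 and 11.2 FPKM with gemcitabine and 19.1, 17.2, 18.6 and 18.6 FPKM in control (log2 change -0.60 ± 0.0429 SE, limma adjusted p = 7.72e-07). COL4A6 thus stood above COL4A5 in every gemcitabine library and below it in every control: the ratio of COL4A6 to COL4A5 was 1.46, 1.495, 1.46 and 1.52 with gemcitabine, against 0.446, 0.425, 0.460 and 0.485 in control. In PANC-1, COL4A5 fell as well, with 1.83 ± 0.185 FPKM with gemcitabine and 2.70 ± 0.157 FPKM in control (log2 change -0.38 ± 0.0661 SE, limma adjusted p = 0.00139). COL4A6 was not expressed there, at 0.226 ± 0.0543 FPKM with gemcitabine and 0.122 ± 0.0291 FPKM in control.

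COL4A6 and COL4A5 are neighbours that point away from each other on chromosome X (GRCh38, COL4A6 at 108155607 to 108439497 on the minus strand and COL4A5 at 108439844 to 108697545 on the plus strand). In RefSeq (GRCh38.p14) the first starts lie 379 bases apart, and a second COL4A6 start lies 1415 bases from that of COL4A5. The upstream sequence is shown because the members of this pair, which share it, went opposite ways. Each line gives 250 bases before a start, 5′ to 3′ on the gene's own strand, with capitals at matches to CCAAT on either strand, and the windows share 121 bases. The windows are chrX:108439588-108439837 (plus strand) for COL4A5 and chrX:108439459-108439708 (minus strand) for COL4A6. RefSeq and the gene bounds above place the COL4A6 start differently, and the last bases of its window lie inside those bounds.
COL4A5 upstream: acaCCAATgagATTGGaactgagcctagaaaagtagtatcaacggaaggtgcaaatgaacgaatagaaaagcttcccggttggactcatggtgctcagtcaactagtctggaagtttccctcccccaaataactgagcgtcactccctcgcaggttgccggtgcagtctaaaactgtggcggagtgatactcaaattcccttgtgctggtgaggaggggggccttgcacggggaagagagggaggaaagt
COL4A6 upstream: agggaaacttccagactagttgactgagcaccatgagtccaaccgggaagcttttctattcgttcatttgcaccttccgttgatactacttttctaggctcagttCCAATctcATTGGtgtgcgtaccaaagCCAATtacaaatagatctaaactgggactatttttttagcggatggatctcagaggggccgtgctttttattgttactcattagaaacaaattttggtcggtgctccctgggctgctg
The pair of CCAAT matches that stands in both windows is 1 stretch read from either side. CCAAT occurred in 32.0% of all 34943 RefSeq upstream windows of this length and in 27.3% of the 44 windows of collagen chains, which covered 32 of the 44 genes. A match of letters is a description of the sequence, not of a bound factor.

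COL4A4 and COL4A3 also lie head to head, and neither was expressed in either line. Another such pair, COL4A1 and COL4A2, encodes the chains of the type IV trimer present in nearly all basement membranes, and both genes rose in PANC-1. COL4A2 had 1.73, 1.51, 1.40 and 1.44 FPKM with gemcitabine and 0.177, 0.147, 0.110 and 0.141 FPKM in control, a ratio of 10.6 (log2 change 1.14 ± 0.0590 SE, limma adjusted p = 1.11e-06). COL4A1 had 1.12, 1.15, 1.08 and 1.09 FPKM with gemcitabine and 0.123, 0.122, 0.112 and 0.124 FPKM in control, a ratio of 9.23 (log2 change 0.91 ± 0.0471 SE, limma adjusted p = 1.10e-06). Both were near 0.1 FPKM in every control and above 1 FPKM in every gemcitabine library, through which alone they passed the filter. The ratio of COL4A2 to COL4A1 was 1.37 ± 0.117 with gemcitabine and 1.19 ± 0.193 in control. In BxPC3 neither was expressed: COL4A1 had 212 reads with gemcitabine and 28 in control over 4 libraries each, and COL4A2 had 27 and 13.

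COL4A1 (chromosome 13, 110148963 to 110307233, minus strand) and COL4A2 (110305812 to 110513209, plus strand) overlap by 1422 bases in the annotation of the files, and without stated strand counting reads from that stretch cannot be told apart. The sequence between their RefSeq starts, 126 bases at chr13:110307158-110307283, is shown on the plus strand because the genes of this pair rose together. By the gene bounds above, the printed stretch lies inside COL4A2, and part of it inside COL4A1. Capitals mark 1 match to CCAAT and 1 to GGGCGG.
COL4A1 and COL4A2, between the starts: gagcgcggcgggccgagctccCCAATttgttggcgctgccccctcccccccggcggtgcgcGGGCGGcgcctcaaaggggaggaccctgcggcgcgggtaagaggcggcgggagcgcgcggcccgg
GGGCGG on either strand occurred in 42.5% of all upstream windows of 250 bases and in 54.5% of those of collagen chains. TGANTCA, the motif bound by AP-1 factors, was found in 6.6% of all windows and in 2.3% of collagen windows, and not in the sequences shown here.

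**Figure D4:**
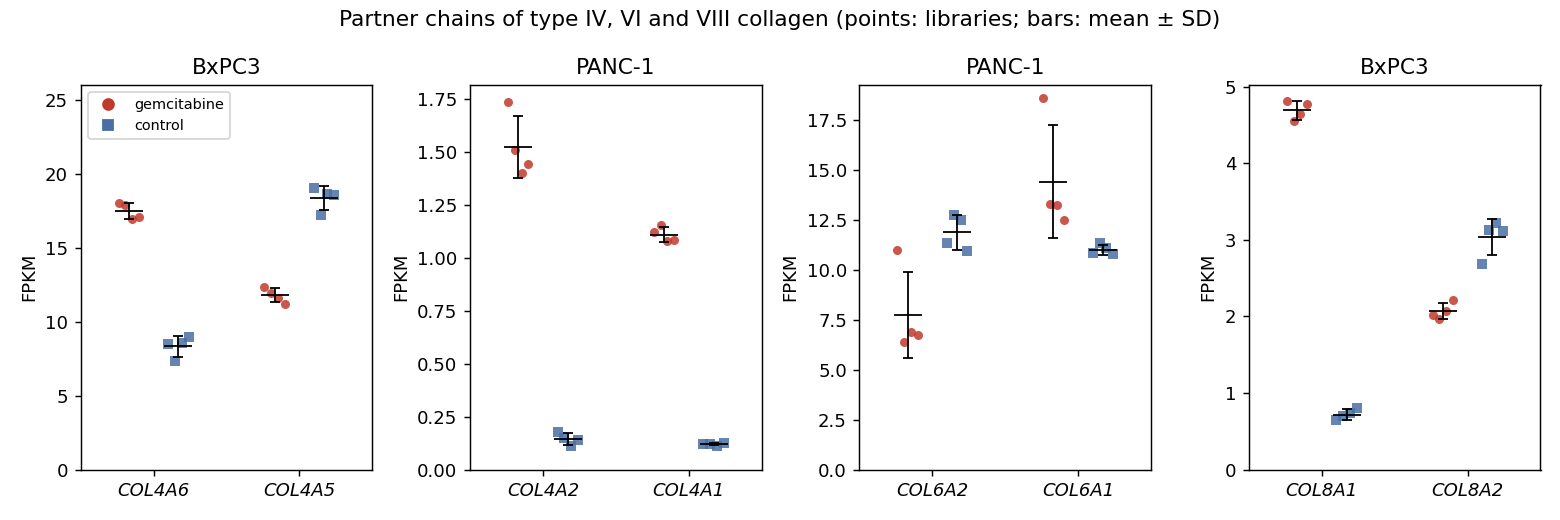
FPKM of partner chains in each library: COL4A6 and COL4A5 in BxPC3, COL4A2 and COL4A1 in PANC-1, COL6A2 and COL6A1 in PANC-1, and COL8A1 and COL8A2 in BxPC3 (each panel has its own axis from 0). Circles are gemcitabine libraries, squares controls, bars mean ± SD. The partners of the first pair cross over, those of the second rise together, and COL6A2 with gemcitabine has 1 high library, replicate 1.

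Of the type VI chains, which form beaded filaments around cells, BxPC3 expressed COL6A1 alone. It had 17.3, 18.2, 19.4 and 19.0 FPKM with gemcitabine and 7.10, 7.56, 6.81 and 7.11 FPKM in control. The gemcitabine libraries all lay above the controls, and the gene rose 2.58-fold (log2 change 1.26 ± 0.0456 SE, limma adjusted p = 6.76e-09). Its usual partners were nearly silent: COL6A2 had 18 reads with gemcitabine and 7 in control over 4 libraries each, and COL6A3 had 8 and 4. PANC-1 expressed COL6A1 and COL6A2, and here they moved apart. COL6A2 had 10.98, 6.39, 6.88 and 6.76 FPKM with gemcitabine and 11.4, 12.8, 12.5 and 10.9 FPKM in control, with replicate 1 of the gemcitabine group inside the control range. It fell to 7.75 ± 2.16 FPKM with gemcitabine, against 11.9 ± 0.880 FPKM in control (log2 change -0.59 ± 0.148 SE, limma adjusted p = 0.0109), and the log2 change was -0.75 without replicate 1. COL6A1 had 18.6, 13.3, 13.3 and 12.5 FPKM with gemcitabine and 10.8, 11.3, 11.1 and 10.8 FPKM in control, higher in every gemcitabine library. Its log2 change of 0.34 ± 0.112 SE (limma adjusted p = 0.0335) became 0.22 without gemcitabine replicate 1, and the call was lost when any 1 control was left out (adjusted p 0.0634 to 0.0806; 1.91e-06 to 0.0807 over all 19 alternatives). The ratio of COL6A2 to COL6A1 was lower in all 4 gemcitabine libraries, at 0.590, 0.480, 0.518 and 0.540 with gemcitabine, against 1.05, 1.13, 1.12 and 1.01 in control. COL6A3 stood at 0.165 ± 0.0379 FPKM with gemcitabine and 0.266 ± 0.0193 FPKM in control in PANC-1.

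COL7A1, the only chain of the anchoring fibrils that tie basement membranes to the tissue beneath, rose in both lines. In BxPC3 it had 22.9, 22.8, 24.2 and 21.9 FPKM with gemcitabine and 15.1, 15.5, 15.2 and 14.1 FPKM in control (log2 change 0.58 ± 0.0420 SE, limma adjusted p = 7.95e-07). PANC-1 held less of it, 1.87 ± 0.331 FPKM with gemcitabine and 1.13 ± 0.0467 FPKM in control (log2 change 0.42 ± 0.0810 SE, limma adjusted p = 0.00277). The COL7A1 groups did not overlap in either line.

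Type VIII collagen forms short-chain networks in vessel walls and in the membrane beneath the corneal endothelium. Its chain COL8A1 (chromosome 3, 99638475 to 99799226) showed the largest fold among the chains expressed in BxPC3. It had 4.81, 4.54, 4.64 and 4.77 FPKM with gemcitabine and 0.642, 0.696, 0.737 and 0.803 FPKM in control, a ratio of 6.52 (log2 change 1.73 ± 0.0443 SE, limma adjusted p = 7.79e-10). The other chain, COL8A2, fell to 2.07 ± 0.105 FPKM with gemcitabine, against 3.04 ± 0.239 FPKM in control (log2 change -0.39 ± 0.0532 SE, limma adjusted p = 7.92e-05). The ratio of COL8A1 to COL8A2 was 2.27 ± 0.0981 with gemcitabine and 0.237 ± 0.0151 in control. In PANC-1 both were below the limit, with COL8A1 at 0.323 ± 0.0582 FPKM (333 reads) with gemcitabine and 0.0183 ± 0.00508 FPKM (17 reads) in control. COL8A2 had 0.328 ± 0.0735 FPKM with gemcitabine and 1.15 ± 0.153 FPKM in control there.

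Chains of the FACIT class, which sit on the surface of fibrils, were lower with gemcitabine in BxPC3, all 4 of those expressed, with COL12A1 the least firm. COL16A1 had 7.29, 7.13, 7.23 and 7.55 FPKM with gemcitabine and 10.9, 13.2, 11.2 and 11.2 FPKM in control (log2 change -0.60 ± 0.0553 SE, limma adjusted p = 4.85e-06). COL9A2 and COL9A3, chains of the type IX collagen that coats cartilage fibrils, fell together. COL9A2 had 3.58, 4.04, 4.59 and 4.81 FPKM with gemcitabine and 7.32, 8.13, 7.52 and 7.40 FPKM in control (log2 change -0.71 ± 0.0732 SE, limma adjusted p = 1.07e-05). COL9A3 had 1.11, 1.70, 2.08 and 1.65 FPKM with gemcitabine and 3.31, 3.74, 3.42 and 3.50 FPKM in control (log2 change -0.78 ± 0.0990 SE, limma adjusted p = 5.00e-05). For both the groups were apart. COL12A1 had 25.3, 25.9, 22.5 and 21.3 FPKM with gemcitabine and 29.8, 24.4, 29.8 and 28.7 FPKM in control, the 1 expressed chain of BxPC3 whose groups overlapped. Its log2 change of -0.24 ± 0.0781 SE (limma adjusted p = 0.0197) lost the call in 7 of 19 alternatives (adjusted p 0.00174 to 0.199), among them TPM scaling (adjusted p = 0.199) and leaving out control replicate 1 (adjusted p = 0.0548), control replicate 3 (0.0551), gemcitabine replicate 3 (0.0546) or gemcitabine replicate 4 (0.0534).

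The remaining BxPC3 chains were COL17A1, COL18A1 and COL28A1. COL17A1 (chromosome 10, 104031286 to 104085957) had 88.5, 92.3, 85.1 and 81.8 FPKM with gemcitabine and 68.5, 60.3, 70.7 and 68.2 FPKM in control. All gemcitabine libraries lay above the controls, and the rise was 1.30-fold (log2 change 0.37 ± 0.0574 SE, limma adjusted p = 0.000206). COL18A1 had 2.21, 2.01, 1.87 and 1.76 FPKM with gemcitabine and 4.46, 3.83, 4.55 and 4.12 FPKM in control, a ratio of 0.462 (log2 change -0.82 ± 0.0625 SE, limma adjusted p = 1.17e-06). COL28A1, a chain related to type VI collagen and known from peripheral nerve, fell to 0.644 ± 0.118 FPKM with gemcitabine, against 1.24 ± 0.128 FPKM in control (log2 change -0.44 ± 0.0649 SE, limma adjusted p = 0.000141).

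The second comparison was the same in PANC-1. Of 17 expressed chains, 7 were higher, 9 lower and 1 not called, beside 20.7% higher and 24% lower among the 12508 genes tested. Without gemcitabine replicate 1 the counts were 8 higher and 9 lower, beside 32.8% and 37%. The median log2 change of the 17 was -0.21, against -0.02 for all tested genes. The groups did not overlap in 14 of 17 chains, as in 45.8% of all tested genes, and in 17 of 17 once gemcitabine replicate 1 was left out, as in 69.5% of all tested genes. Past an absolute log2 change of 1 were COL13A1, COL22A1 and COL4A2 upward, where 3.21% of tested genes passed it, and COL9A3 and COL26A1 downward, where 1.06% did. Besides COL4A1 and COL4A2, the chains COL21A1, COL22A1 and COL27A1 passed the filter through the gemcitabine libraries alone, so they could enter only as higher chains. COL9A2 and COL26A1 passed with 4 controls and 1 gemcitabine library each. With each library's GC trend removed the counts were 8 higher and 9 lower.

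COL13A1, which encodes a membrane-spanning collagen of cell adhesion sites and of the neuromuscular junction, had the largest change on the log2(FPKM + 1) scale, while by the ratio of means COL4A2, COL22A1 and COL4A1 stood above it. It had 13.8, 14.6, 13.4 and 13.1 FPKM with gemcitabine and 2.15, 1.90, 1.88 and 1.84 FPKM in control. The groups stood 7.06-fold apart with little spread within either (log2 change 2.32 ± 0.0607 SE, limma adjusted p = 4.15e-08), and the ratio was 7.05 without gemcitabine replicate 1. In BxPC3 it had 3 reads with gemcitabine and 13 in control over 4 libraries each. The gene lies on chromosome 10 (69801867 to 69964275, plus strand). Its upstream window is shown as that of the chain with the largest change on the log2(FPKM + 1) scale, at chr10:69801656-69801905 on the plus strand, with capitals at 1 match to TATAAA, which stood far upstream of the start. RefSeq and the gene bounds above place this start differently, and the last bases of the window lie inside those bounds.
COL13A1 upstream: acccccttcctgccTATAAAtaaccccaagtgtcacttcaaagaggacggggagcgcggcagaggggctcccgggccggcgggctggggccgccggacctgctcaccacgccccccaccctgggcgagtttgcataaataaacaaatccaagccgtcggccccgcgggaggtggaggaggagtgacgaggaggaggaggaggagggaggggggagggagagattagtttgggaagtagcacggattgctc
TATAAA on either strand was present in 10.8% of all upstream windows and in 18.2% of those of collagen chains.

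COL22A1, a FACIT chain known from tissue junctions such as that of muscle and tendon, had 5.56, 4.44, 4.36 and 4.52 FPKM with gemcitabine and 0.496, 0.485, 0.527 and 0.404 FPKM in control. This was a 9.87-fold rise (log2 change 1.95 ± 0.0756 SE, limma adjusted p = 2.77e-07), in a gene with 7 reads with gemcitabine and 4 in control in BxPC3. COL21A1, another FACIT chain, was the 1 expressed chain without a call (log2 change 0.17 ± 0.0642 SE, limma adjusted p = 0.0622). Its change passed the threshold in 4 of 18 alternatives, among them without gemcitabine replicate 1 (adjusted p = 0.0103; 0.0103 to 0.162 over all).

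The type IX chains fell in PANC-1 too. COL9A3 had 6.66, 4.65, 3.86 and 4.29 FPKM with gemcitabine and 11.03, 11.2, 12.2 and 11.3 FPKM in control (log2 change -1.10 ± 0.129 SE, limma adjusted p = 0.000162). COL9A2 had 0.939, 1.004, 0.7995 and 0.781 FPKM with gemcitabine and 2.09, 2.36, 2.76 and 2.61 FPKM in control (log2 change -0.87 ± 0.0769 SE, limma adjusted p = 2.75e-05). The gemcitabine libraries of both lay below all controls. The remaining chain of the type IX trimer, COL9A1, was nearly silent, with 11 reads with gemcitabine and 5 in control in PANC-1, and 0 and 6 in BxPC3. COL26A1, known from testis and ovary, also fell, with 1.31, 0.877, 0.770 and 0.630 FPKM with gemcitabine and 3.06, 2.43, 3.33 and 3.10 FPKM in control (log2 change -1.08 ± 0.116 SE, limma adjusted p = 0.000101).

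Among the fibril-forming chains of PANC-1, COL11A1, COL5A2 and COL1A1 were lower and COL27A1 was higher. COL11A1, a cartilage chain that in pancreatic cancer is known as a mark of stromal fibroblasts, had 2.61, 2.81, 2.76 and 2.76 FPKM with gemcitabine and 6.35, 5.59, 5.57 and 5.98 FPKM in control. The gemcitabine libraries varied by little and all lay below the controls (log2 change -0.88 ± 0.0580 SE, limma adjusted p = 4.55e-06). COL5A2 had 26.5, 29.4, 28.1 and 28.8 FPKM with gemcitabine and 33.7, 31.4, 32.9 and 33.1 FPKM in control, a small fall without overlap (log2 change -0.21 ± 0.0552 SE, limma adjusted p = 0.0123). COL1A1 had 11.1, 7.43, 7.41 and 7.73 FPKM with gemcitabine and 10.8, 11.9, 11.5 and 11.2 FPKM in control, with replicate 1 again inside the control range. Its log2 change of -0.41 ± 0.118 SE (limma adjusted p = 0.0205) was -0.53 without that replicate (adjusted p = 6.39e-07). The call was lost without control replicate 2 (adjusted p = 0.0562) or 3 (0.0528) and without gemcitabine replicate 2 (0.0577), 3 (0.0586) or 4 (0.0553). COL27A1 had 1.47, 1.20, 1.24 and 1.36 FPKM with gemcitabine and 0.505, 0.426, 0.507 and 0.380 FPKM in control (log2 change 0.67 ± 0.0611 SE, limma adjusted p = 3.08e-05).

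COL18A1 (chromosome 21, 45405137 to 45513720), the dominant chain of PANC-1, deviated more in gemcitabine replicate 1 than any other expressed chain. It had 246, 152, 152 and 150.0 FPKM with gemcitabine and 252, 269, 262 and 236 FPKM in control. The call was a fall to 175 ± 47.1 FPKM with gemcitabine, against 255 ± 14.2 FPKM in control (log2 change -0.57 ± 0.153 SE, limma adjusted p = 0.0146). Without replicate 1 the gemcitabine mean was 152 ± 1.33 FPKM and the log2 change -0.74 (adjusted p = 7.23e-08), and with each library's GC trend removed the change was -0.45 (adjusted p = 2.47e-06). Over 19 alternatives the adjusted p ranged from 7.23e-08 to 0.0433.

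**Figure D5:**
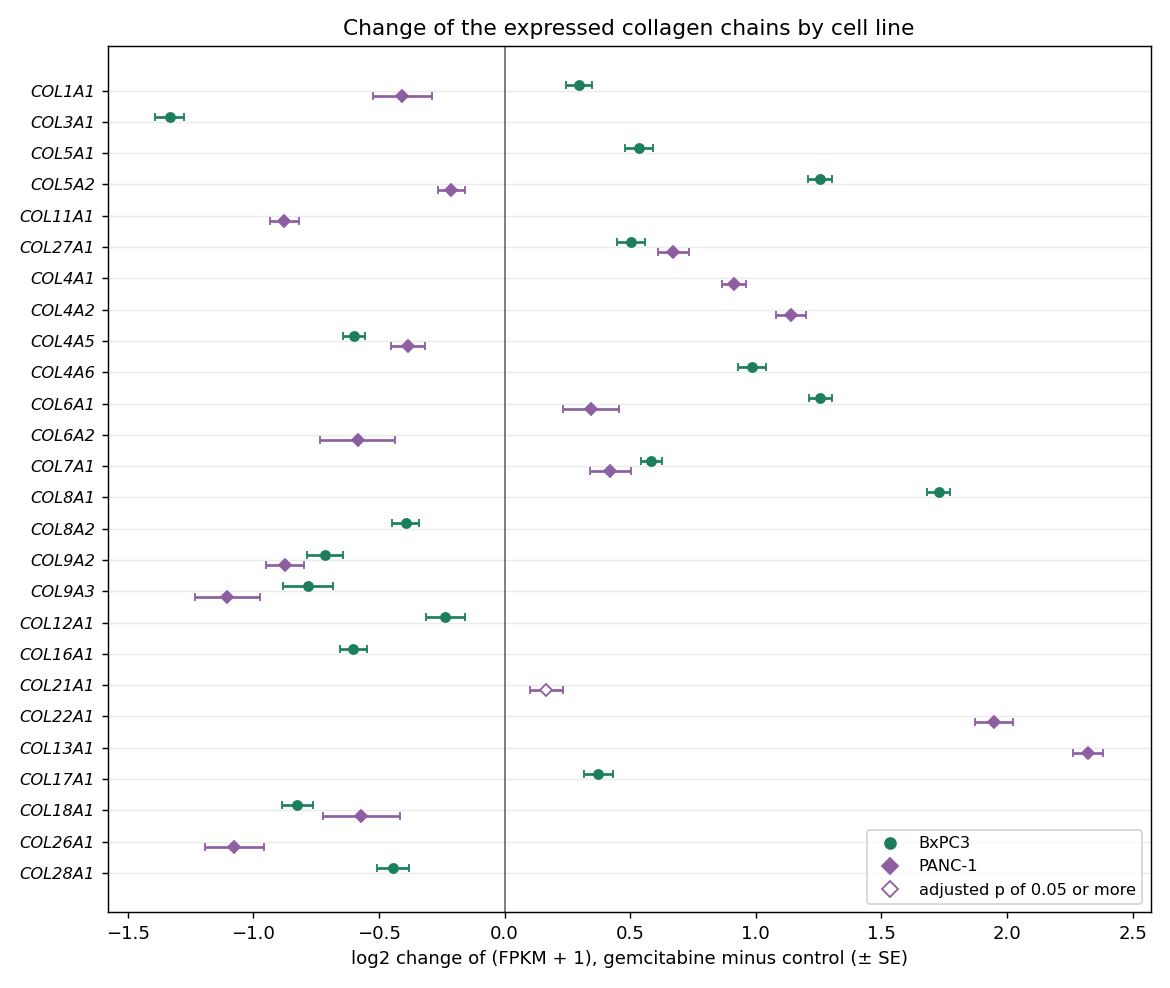
Log2 change of (FPKM + 1), gemcitabine minus control, with its SE, for the 26 collagen chains expressed in either line, ordered by class from fibril-forming (top) to other types (bottom). Circles are BxPC3 and diamonds PANC-1, and the open diamond is COL21A1 (adjusted p = 0.0622). COL1A1 and COL5A2 lie right of 0 in BxPC3 and left of it in PANC-1.

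The 9 chains expressed in both lines were all called in both, 7 in the same direction and 2 in opposite directions, beside 25.4% and 8.47% of the 10670 genes tested in both lines. One of the 7, COL27A1, passed the filter in PANC-1 through its gemcitabine libraries alone. COL27A1, COL6A1 and COL7A1 rose and COL4A5, COL9A2, COL9A3 and COL18A1 fell in both, while COL1A1 and COL5A2 rose in BxPC3 and fell in PANC-1. The difference itself, the PANC-1 change minus the BxPC3 change, was tested over all 16 libraries. Of the 26 chains expressed in either line, 9 had a higher and 10 a lower change in PANC-1, and 7 showed no called difference, beside 25.2% higher and 26.6% lower among the 14134 genes tested. Without PANC-1 gemcitabine replicate 1 the counts were 9 and 12, beside 31.9% and 33.1%. With the test limited to genes expressed in each line, 1 of the 9 shared chains was higher, COL4A5, and 3 lower, COL5A2, COL6A1 and COL1A1. The values that follow are from the fit over all 14134 genes. COL5A2 differed by -1.47 ± 0.0671 SE (limma adjusted p = 4.28e-11), COL6A1 by -0.91 ± 0.125 SE (limma adjusted p = 1.56e-05) and COL1A1 by -0.70 ± 0.131 SE (limma adjusted p = 0.000308). COL4A5 differed by 0.21 ± 0.0780 SE (limma adjusted p = 0.0306), a call lost in 12 of 24 alternatives (adjusted p 0.00163 to 0.943). For COL7A1, COL9A2, COL9A3, COL18A1 and COL27A1 no difference was called, with values from -0.32 ± 0.171 SE for COL9A3 to 0.25 ± 0.174 SE for COL18A1, which does not show that they changed alike. Without PANC-1 gemcitabine replicate 1 the change in PANC-1 was lower for COL7A1 (-0.24, limma adjusted p = 0.00148) and COL9A3 (-0.46, limma adjusted p = 0.00502). With each library's GC trend removed, COL7A1 (-0.17), COL9A3 (-0.30) and COL18A1 (0.27) were called, and with limma-voom COL9A2 (-0.71) and COL27A1 (0.78). Over 24 alternatives the adjusted p ranged from 0.00148 to 0.968 for COL7A1, 0.00139 to 0.425 for COL9A2, 0.00502 to 0.581 for COL9A3, 0.0193 to 0.412 for COL18A1 and 0.000241 to 0.221 for COL27A1.

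For chains expressed in 1 line the size of a difference depends on the pseudocount of 1 FPKM, since a gene near 0 can hardly move on this scale. COL13A1 differed by 2.34, COL22A1 by 1.94, COL3A1 by 1.17 and COL4A2 by 1.13, each with a higher change in PANC-1. COL22A1 and COL4A2 met the limit of this test through the PANC-1 gemcitabine libraries alone, so this direction was built in. COL3A1 did not rise in PANC-1, with 0.300 ± 0.0591 FPKM with gemcitabine and 0.452 ± 0.0519 FPKM in control, but fell in BxPC3 (-1.33). COL8A1 had a lower change in PANC-1 on this scale, by -1.35, yet its ratio of gemcitabine to control reads was higher there, and the difference became 1.24 with limma-voom on the recovered reads (adjusted p = 0.00439; 4.66e-12 to 0.00439 over 23 alternatives). COL17A1 was not called at -0.09 ± 0.0774 SE (limma adjusted p = 0.358), but came to 1.08 with a pseudocount of 0.1 (adjusted p = 1.56e-05) and to 2.74 with limma-voom (adjusted p = 4.08e-05; 1.56e-05 to 0.641 over 23 alternatives). In PANC-1 this chain had 0.252 ± 0.0517 FPKM, or 192 reads, with gemcitabine and 0.0276 ± 0.0155 FPKM, or 19 reads, in control.

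Chains of heterotrimers were not always present together. COL1A2, which joins COL1A1 in most type I collagen, had 29 reads with gemcitabine and 10 in control over 4 libraries each in BxPC3, and 4 and 0 in PANC-1, beside COL1A1 with 8813 and 10993 reads in PANC-1. COL5A2 and COL5A1 stood at a ratio of 1.01 ± 0.0520 with gemcitabine and 0.434 ± 0.0312 in control in BxPC3, and of 28.9 ± 5.52 with gemcitabine and 35.1 ± 1.65 in control in PANC-1. COL4A3 and COL4A4, the partners of COL4A5 in kidney basement membrane, had means of at most 0.0821 FPKM in every group.

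Among the chains below the limit, a fit without the filter called 5 of 26 in BxPC3 and 6 of 26 in PANC-1, leaving out COL6A5 without reads there. Of all genes in those fits 29% and 18.9% were called, but these shares include expressed genes and are not those of genes below the limit. With the expressed chains included, 13 of 44 chains were higher and 9 lower in BxPC3, and 10 of 43 higher and 10 lower in PANC-1. Higher with gemcitabine in BxPC3 were COL4A1, COL4A4, COL5A3 and COL11A1, and COL21A1 was lower. The highest level among them was that of COL5A3, 0.300 ± 0.0408 FPKM with gemcitabine and 0.0667 ± 0.0127 FPKM in control (adjusted p = 0.000356). In PANC-1 the higher ones were COL8A1, COL17A1, COL24A1 and COL5A3, and the lower ones COL8A2 and COL23A1. COL23A1, a membrane-spanning collagen, had 0.149 ± 0.0102 FPKM with gemcitabine and 0.811 ± 0.0738 FPKM in control (adjusted p = 7.20e-05).

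The machinery that makes, exports, binds and cuts collagen was followed with lists of known genes. Among the 18 listed enzymes and chaperones that modify collagen chains in the endoplasmic reticulum, 11 of 15 tested were higher and 3 lower in BxPC3, with 1 not called (median log2 change 0.28). In PANC-1, 2 of 18 tested were higher and 7 lower, with 9 not called (median -0.19). For these and the lists that follow, 37.3% of all tested genes were higher and 36.1% lower in BxPC3, and 20.7% higher and 24% lower in PANC-1, so little can be read from the counts of lists with 2 to 6 tested genes. P4HA2, a catalytic subunit of prolyl 4-hydroxylase, which stabilises the triple helix, rose in BxPC3 to 4.64 ± 0.189 FPKM with gemcitabine, against 2.98 ± 0.156 FPKM in control (limma adjusted p = 3.77e-06). In PANC-1 the same gene fell to 4.23 ± 0.318 FPKM with gemcitabine, against 9.37 ± 0.286 FPKM in control (limma adjusted p = 3.16e-06). The sister subunit P4HA1 fell in both lines, to 11.8 ± 0.771 FPKM with gemcitabine against 22.5 ± 1.06 FPKM in BxPC3 controls and to 25.2 ± 3.89 FPKM against 42.4 ± 1.51 FPKM in PANC-1 controls. COLGALT1, which adds galactose to hydroxylysine, had 58.7 ± 1.73 FPKM with gemcitabine and 40.3 ± 0.466 FPKM in control in BxPC3 (limma adjusted p = 3.33e-07). CRTAP, part of the prolyl 3-hydroxylation complex, fell in both lines (log2 change -0.58 in BxPC3 and -0.22 in PANC-1).

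Of 5 export genes, which help the long procollagen out of the endoplasmic reticulum, 1 rose and 3 fell in each line. KLHL12, an adaptor of the ubiquitin ligase that enlarges COPII vesicles, fell in both lines (log2 change -0.40 in BxPC3 and -0.26 in PANC-1), as did MIA2, which encodes a cofactor of procollagen export (-0.30 in BxPC3 and -0.28 in PANC-1). The COPII coat gene SEC23A rose in BxPC3 (log2 change 0.40) and fell in PANC-1 (-0.41), and SEC24D rose in PANC-1 (0.39). For propeptide removal, 2 of 10 listed genes were tested in BxPC3 and 3 in PANC-1. BMP1, the procollagen C-proteinase, rose in BxPC3 to 31.6 ± 0.592 FPKM with gemcitabine, against 21.1 ± 0.810 FPKM in control (limma adjusted p = 3.84e-07). Its enhancer PCOLCE fell in both lines (log2 change -0.78 in BxPC3 and -0.65 in PANC-1), and PCOLCE2 was tested in PANC-1 alone without a call (0.03).

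Among 5 crosslinking enzymes, which join chains through oxidised lysines, 1 rose and 3 fell in BxPC3 and 1 rose and 1 fell of 4 tested in PANC-1. LOXL4 fell in BxPC3 to 15.1 ± 0.416 FPKM with gemcitabine, against 59.5 ± 0.596 FPKM in control (limma adjusted p = 9.31e-11), and LOXL2 rose there to 4.08 ± 0.320 FPKM, against 0.463 ± 0.135 FPKM (limma adjusted p = 1.55e-08). In this line LOXL2 passed the filter through its gemcitabine libraries alone, so it could enter only as a higher gene. In PANC-1 LOXL4 fell as well (log2 change -0.53), and LOXL2 was not called (0.10). LOX fell in BxPC3 (log2 change -0.54) and rose in PANC-1 (0.48), while LOXL1 fell in BxPC3 (-0.81).

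Of the 10 listed collagen receptors, 1 rose and 2 fell among 5 tested in BxPC3, and 3 rose and 2 fell among 6 tested in PANC-1. DDR1, a tyrosine kinase receptor of collagen in epithelia, fell in BxPC3 to 51.7 ± 1.41 FPKM with gemcitabine, against 103 ± 0.356 FPKM in control (limma adjusted p = 4.68e-09). In PANC-1 it rose to 24.4 ± 5.55 FPKM with gemcitabine, against 15.9 ± 0.747 FPKM in control (limma adjusted p = 0.00689). ITGA2, the integrin alpha 2 subunit, rose in PANC-1, with 82.5, 118, 115 and 119 FPKM with gemcitabine and 38.5, 35.3, 35.7 and 35.2 FPKM in control (limma adjusted p = 1.14e-05). In BxPC3 ITGA2 had 22.8 ± 3.01 FPKM with gemcitabine and 23.8 ± 2.91 FPKM in control (limma adjusted p = 0.614). DDR2 was expressed in PANC-1 alone and was higher there with gemcitabine (log2 change 0.63). It passed the filter through its gemcitabine libraries alone, so it could enter only as a higher gene. ITGB1 rose in BxPC3 (0.26).

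Of 6 collagenase and gelatinase genes, 2 rose and none fell among 3 tested in BxPC3, and 1 rose and 2 fell among 3 tested in PANC-1. MMP1, which cuts fibrillar collagen, had 92.4, 105, 106 and 103 FPKM with gemcitabine and 8.09, 8.27, 8.18 and 7.89 FPKM in control in PANC-1, a 12.5-fold rise (log2 change 3.49 ± 0.0598 SE, limma adjusted p = 8.40e-09). In BxPC3 it rose to 88.1 ± 2.63 FPKM with gemcitabine, against 31.1 ± 1.84 FPKM in control (limma adjusted p = 2.82e-09). The gelatinase gene MMP9 rose in BxPC3 to 11.3 ± 1.64 FPKM with gemcitabine, against 1.09 ± 0.151 FPKM in control (limma adjusted p = 7.40e-09). MMP2, the other gelatinase, fell in PANC-1 to 45.1 ± 6.32 FPKM with gemcitabine, against 141 ± 7.57 FPKM in control (limma adjusted p = 2.55e-06). MMP14, a membrane-bound collagenase, fell in PANC-1 (log2 change -0.47) and had 318 ± 12.8 FPKM with gemcitabine and 317 ± 15.0 FPKM in control in BxPC3 (limma adjusted p = 0.946). Over all these lists, 17 genes were higher and 12 lower of 35 tested in BxPC3, and 8 higher and 16 lower of 39 tested in PANC-1. Without PANC-1 gemcitabine replicate 1 the PANC-1 counts were 9 and 21, where the share of all tested genes was larger too, at 32.8% higher and 37% lower.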

How the data were processed

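RNA of BxPC3 and PANC-1 was column-purified and poly-A enriched, per the labels' protocols. For either line the authors deposited a table that lists every gene with its FPKM in each library and its length in bases, another unit used here. The submitters' processing notes name CASAVA and HISAT2 and give no version of either. They also give mm10, yet 58724 of the 58735 listed genes have their GENCODE 29 start and end on GRCh38, which is used here. Which program counted the reads, and whether by strand, is not given in the sources used here. FPKM times gene length was a whole number of reads for 100% of values within 0.02 reads, which gives reads and depth, and limits of 3 reads cover counting error alone. Within groups every pair of libraries differed by more than counting noise (chi-square per degree of freedom at least 2.074).

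Members and lists were chosen with earlier results of these data known. Each line had its own fit in limma 3.58.1 (R 4.3.3, empirical Bayes, trend and robust) on log2(FPKM + 1). It ran over genes at 1 FPKM or more in at least 4 of 8 libraries, 2-sided, with Benjamini-Hochberg adjustment over all of them. The PANC-1 minus BxPC3 difference was the interaction term, for genes that met the limit in at least 4 of 16 libraries. The fits were tested on simulated data. Alternatives were a pseudocount of 0.1, other filters, other scalings, limma-voom on the reads, a replicate block, removal of each library's GC trend and each library left out. Chains at an adjusted p under 0.05 with an absolute log2 change of at least 0.5, or with a group mean of at least 10 FPKM, are given by library. Up to 4 genes of each other list were named by p. GC content is that of the longest GENCODE transcript, and upstream sequences are from RefSeq on GRCh38.p14. A count of triple-helix repeats in the proteins was not run, since no protein table was used here. Tables were read with Python 3.11.15, pandas 2.3.3, numpy 2.4.6 and scipy 1.17.1, and figures drawn with matplotlib 3.10.9.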

Additional observations from a re-analysis of the deposited data

Results flagged for a closer look

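Of 70 groups of 4 libraries of the expressed chains, 8 held a library far from the other 3 by Dixon's test, where chance gives about 1 in 20. PANC-1 gemcitabine replicate 1 was such a library for COL18A1 (245.8 FPKM, others 150.0 to 152.4), COL1A1 (11.14, others 7.414 to 7.728), COL22A1 (5.561, others 4.356 to 4.52), COL6A1 (18.62, others 12.53 to 13.3) and COL6A2 (10.98, others 6.386 to 6.878). BxPC3 control replicate 2 was high for COL16A1 (13.16 FPKM, others 10.91 to 11.24) and low for COL27A1 (2.086, others 2.27 to 2.299). PANC-1 control replicate 3 was low for COL4A1 (0.1125 FPKM, others 0.1222 to 0.1239).

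With the other named collagen genes, 22 of 154 groups held such a library, and 15 of the 22 were PANC-1 gemcitabine replicate 1. Among the other genes that library was high for COLGALT1 (45.58 FPKM), LOXL1 (21.05), LOXL2 (14.78), DDR1 (32.75) and MMP2 (54.57), and low for P4HA1 (19.4 FPKM), MIA2 (2.441), SEC23A (10.93), ITGA2 (82.47) and ITGB1 (161.3). BxPC3 control replicate 2 was low for ITGA2 (19.47 FPKM) and high for MMP14 (339.9). PANC-1 controls were high for ITGA2 in replicate 1 (38.46 FPKM) and for MMP14 in replicate 2 (23.29).

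The change with gemcitabine differed between the lines, PANC-1 minus BxPC3 on the log2 scale, for 19 of 26 chains by the interaction test. It was lower in PANC-1 for COL5A2 (-1.47), COL8A1 (-1.35), COL26A1 (-1.15), COL11A1 (-0.92), COL6A1 (-0.91), COL4A6 (-0.86), COL1A1 (-0.70), COL6A2 (-0.61), COL5A1 (-0.49) and COL8A2 (-0.30). It was higher in PANC-1 for COL13A1 (2.34), COL22A1 (1.94), COL3A1 (1.17), COL4A2 (1.13), COL4A1 (0.79), COL16A1 (0.57), COL28A1 (0.46), COL21A1 (0.22) and COL4A5 (0.21). These values are on the log2(FPKM + 1) scale: with limma-voom on the reads COL8A1 was higher in PANC-1 (1.24). There the differences of COL4A6 (-0.26), COL4A1 (0.19) and COL4A5 (0.01) were smaller and not called. Those of COL6A2 (-1.62) and COL28A1 (1.76) were larger, yet not called either. COL4A1, COL4A2, COL21A1 and COL22A1 met the limit through the PANC-1 gemcitabine libraries alone, COL8A1 through those of BxPC3 and COL28A1 through the BxPC3 controls.

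Of the 23 named genes of collagen handling, 18 differed in the same test. They were named by p, so a high count was built in, and of all 42 listed genes tested 12 were higher and 20 lower in PANC-1, beside 25.2% and 26.6% of all tested genes. Lower in PANC-1 were MMP9 (-2.42), LOXL2 (-1.69), MMP2 (-1.69), P4HA2 (-1.49), SEC23A (-0.80), COLGALT1 (-0.50), BMP1 (-0.48), MMP14 (-0.47) and ITGB1 (-0.41). Higher in PANC-1 were MMP1 (2.01), ITGA2 (1.61), DDR1 (1.55), LOXL4 (1.38), LOX (1.03), DDR2 (0.68), LOXL1 (0.56), SEC24D (0.38) and CRTAP (0.36). As for the chains, the pseudocount weighs on genes with few reads in a line. MMP9 had 28 reads with gemcitabine and 4 in control in PANC-1, a ratio of mean FPKM of 6.76, against 10.4 in BxPC3. MMP2 had 39 reads with gemcitabine and 12 in control in BxPC3. DDR2 met the limit through the PANC-1 gemcitabine libraries alone.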

How the results depend on the processing

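Of 645 values of single chains within a line under the alternatives, 621 kept direction and side of the threshold, 20 lost the call, 4 gained it and none changed sign. With a mean of at least 5 FPKM, 4 chains were higher and 4 lower in BxPC3 and 2 and 5 in PANC-1, where fewer chains were tested. With an absolute log2 change of 1 the counts were 3 and 1 in BxPC3 and 3 and 2 in PANC-1. Of 607 values for the difference between lines, 16 lost the call, 13 gained it and 3 changed sign with a call in either fit. The other 575 kept their side of the threshold. Among them COL12A1 (-0.06 to 0.21) and COL7A1 (-0.24 to 0.05) also changed sign under some alternatives, without a call. With genes expressed in each line, 1 chain was higher and 3 lower. COL17A1 changed sign to 1.08 with a pseudocount of 0.1 and to 2.74 with limma-voom, and COL8A1 to 1.24 with limma-voom. Limma-voom also lost the calls for the differences of COL4A1, COL4A5, COL4A6, COL6A2 and COL28A1, with larger values for COL6A2 (-1.62) and COL28A1 (1.76). In each of these at least 1 line had levels under 1 FPKM, except for COL4A5. Among the listed collagen handling genes, 13 were higher in PANC-1 with no filter, against 8 of 39 tested with it. The fit with no filter also took in listed genes below the limit, so the 2 counts are over different numbers of genes. The cause was not tested.

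Replicate numbers did not pair the samples: gemcitabine and control libraries of 1 number correlated at -0.376 to 0.189 in their deviations. Of 8 gemcitabine libraries, 1, PANC-1 replicate 4, correlated best with the control of its own number. With the replicate block 9 chains were higher and 9 lower in BxPC3, 6 and 8 in PANC-1, and 8 and 10 for the difference. The calls lost were COL5A2 (adjusted p = 0.0706) and COL6A1 (adjusted p = 0.0547) in PANC-1, and COL4A5 (adjusted p = 0.0746) for the difference. Leaving out 1 library in turn gave 9 higher and 8 to 9 lower chains in BxPC3, 6 to 8 and 8 to 9 in PANC-1, and 8 to 10 and 10 to 12 for the difference. Of the listed collagen handling genes 11 were lower in PANC-1 with the replicate block, against 16 without it. For chains with a few reads per library counting error limits what could be called.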
